A study of Mus musculus with 40 samples.

Results

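Wild type (WT) epiblast-like cells (EpiLCs) were compared with the WT naive mouse embryonic stem (mES) cells they came from, across all genes and all families of transposable elements (TEs). All libraries labelled WT were taken, 8 of mES cells and 8 of EpiLCs, which is 16 of the 40 libraries of the study. The study asked how the nuclear lamina and the lamin B receptor position and silence heterochromatin, and its other 24 libraries came from mutants of these proteins. The mutants entered here only in the filter on low counts, the scaling of libraries and the estimate of the spread between libraries. The readout was total RNA depleted of ribosomal RNA.

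The WT cells were an XY mES line from a littermate of the line lacking lamins, and no allele was deleted in them. WT mES cells were kept in medium with LIF, 3 µM CHIR-99021 and 1 µM PD0325901, which inhibit GSK3 and MEK. WT EpiLCs were made from them by moving them to N2B27 medium to which FGF (20 ng/mL) and activin A (12 ng/mL) had been added, and were collected at 48 h. By the study's methods, mES cells grew on gelatin, and EpiLCs on Geltrex or Cultrex at a lower seeding density. Medium, coating and density thus changed together with stage, and their parts cannot be told apart. Each library came from its own culture well of this single line, so p-values measure the spread between wells and not between lines. In comparisons of the stages, that spread includes the differences between replicate sets that are described further on. The study's karyotypes of this line were mixed, with a normal majority. A minor population had lost the Y chromosome, and another had lost it and gained both chromosomes 6 and 8. Bulk RNA does not hold the state of single cells, so a change in the share of cells that express a gene and a change of RNA per cell cannot be told apart.

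Naive mES cells resemble the epiblast before implantation. Their transcription factors are held up by LIF through STAT3, by WNT signalling through β-catenin, and by the absence of FGF and ERK signalling. On transfer to FGF and activin, cells pass through a formative state that resembles the epiblast just after implantation, in which DNA is methylated afresh, naive factors are shut off and the cells become competent to form germ layers and germ cells. TEs, the remnants and copies of transposons that fill much of the genome, are silenced in both states by DNA methylation and by methylation of histone H3 on lysine 9.

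The promoters of 5 genes that mark the stages are shown as 300 bases of GRCm39 each, 250 before and 50 after the start of the canonical transcript, on the strand of the gene. Fgf5, a secreted growth factor (chr5:98401530-98401829, + strand), Pou3f1, a POU transcription factor (chr4:124550350-124550649, + strand), and Dnmt3b, a de novo DNA methyltransferase (chr2:153491073-153491372, + strand), stand for the formative state. Tfcp2l1, a target of LIF and of WNT signalling (chr1:118555386-118555685, + strand), and Nanog, a homeobox factor (chr6:122684237-122684536, + strand), stand for the naive state. Capitals mark matches, on either strand, to GGGCGG (the GC box of KLF and SP factors), TAATCC (OTX factors) or TATAAA (the TATA box). ATGCAAAT, CTTTGAA, TTCCNGGAA, CCGGAAGT and CACGTG, also searched, had no match in these 5 windows.
Fgf5: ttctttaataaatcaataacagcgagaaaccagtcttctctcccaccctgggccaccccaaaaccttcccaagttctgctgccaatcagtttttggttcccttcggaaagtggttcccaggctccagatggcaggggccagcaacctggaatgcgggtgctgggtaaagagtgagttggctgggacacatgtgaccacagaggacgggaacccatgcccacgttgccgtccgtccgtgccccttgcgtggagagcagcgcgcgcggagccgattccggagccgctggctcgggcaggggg
Pou3f1: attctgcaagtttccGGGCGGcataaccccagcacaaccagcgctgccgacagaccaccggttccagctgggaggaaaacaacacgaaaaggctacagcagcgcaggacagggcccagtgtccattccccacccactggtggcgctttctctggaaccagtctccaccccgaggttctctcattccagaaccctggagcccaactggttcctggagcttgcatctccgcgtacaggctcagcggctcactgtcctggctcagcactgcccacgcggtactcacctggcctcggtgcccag
Dnmt3b: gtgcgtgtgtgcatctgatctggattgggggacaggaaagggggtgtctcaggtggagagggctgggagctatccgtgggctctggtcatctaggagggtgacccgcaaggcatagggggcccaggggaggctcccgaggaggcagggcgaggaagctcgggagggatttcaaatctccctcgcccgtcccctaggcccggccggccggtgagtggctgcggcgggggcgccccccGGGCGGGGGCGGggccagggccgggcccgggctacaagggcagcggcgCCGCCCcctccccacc
Tfcp2l1: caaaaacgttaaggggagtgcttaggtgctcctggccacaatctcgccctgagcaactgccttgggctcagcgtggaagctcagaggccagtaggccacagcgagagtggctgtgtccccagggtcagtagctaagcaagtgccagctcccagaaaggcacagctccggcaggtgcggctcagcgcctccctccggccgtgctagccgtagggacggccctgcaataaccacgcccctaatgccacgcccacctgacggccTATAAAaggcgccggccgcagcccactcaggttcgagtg
Nanog: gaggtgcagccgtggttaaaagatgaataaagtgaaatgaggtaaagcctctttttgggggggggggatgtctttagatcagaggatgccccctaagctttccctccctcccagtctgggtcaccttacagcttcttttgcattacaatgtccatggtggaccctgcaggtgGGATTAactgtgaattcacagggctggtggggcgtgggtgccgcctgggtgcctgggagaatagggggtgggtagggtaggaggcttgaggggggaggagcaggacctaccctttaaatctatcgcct

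These windows held 17 CpG dinucleotides for Fgf5, 15 for Pou3f1, 22 for Dnmt3b, 18 for Tfcp2l1 and 4 for Nanog. Over the 15464 protein-coding genes tested, the median window held 16. The median was 12 for genes higher in EpiLCs, 10 for genes lower in EpiLCs and 17 for genes that passed the thresholds given below in neither direction. Of the 387 protein-coding genes that fell over 10-fold, 39.3% had fewer than 5 CpG dinucleotides there, against 8.91% of genes that passed in neither direction. As a group, the genes that fell furthest thus had the promoters poorest in CpG dinucleotides. The Nanog window, shown above, was on that side of the limit, whereas the Tfcp2l1 window held more than the median of all genes. The ETS motif CCGGAAGT stood in 7.74% of windows of genes that did not pass, 1.39% of those of higher genes and 1.97% of those of lower genes. The GC box GGGCGG stood in 57.8%, 52.9% and 44.2% of the same groups of windows, and the TATA box TATAAA in 7.94%, 10.03% and 10.6%. The octamer ATGCAAAT, read by POU factors such as OCT4, stood in 1.37%, 1.77% and 2.07%. These shares are descriptions of the windows and were not tested.

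Gene counts ran from 27.7 to 46.6 megareads (M) per mES library and from 25.4 to 48.9 M per EpiLC library, so depth did not separate the stages. Replicates 5 to 8 of both stages were deeper, at 39.4 to 48.9 M, than replicates 1 to 4, at 25.4 to 33.5 M. The labels do not say what set these replicates apart, and the sets are compared further on. The correlation of log2 levels over genes was 0.886 to 0.908 between libraries of different stages and at least 0.964 within a stage. The first principal component held 70.7% of the variance and separated the stages. The second held 6.69%, and library 7 of the mES cells lay farthest out on it. That library also had the highest TE share of its stage and the highest levels of the growth-factor response genes Egr1, Fos and Id3, and results that change without it are named.

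Levels are given as CPM, a gene's counts per megaread of the library after scaling, with the lowest, highest and median of the 8 libraries of a stage. Changes are log2 fold changes of EpiLCs over mES cells with their standard errors. A gene or TE family is said to have risen or fallen when its Benjamini-Hochberg adjusted p in edgeR's quasi-likelihood test was under 0.05 and its change was over 2-fold. These are the thresholds meant wherever a value is said not to have passed.

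The marker genes stood as the labels say in all 16 libraries. Fgf5 (ENSMUSG00000029337.3, chr5:98401780-98452320, + strand) lay at 0.0226 to 0.194 CPM (median 0.0797) in mES cells and at 132 to 157 CPM (median 147) in EpiLCs, a log2 fold change of 10.53 ± 0.12 (edgeR adjusted p = 1.01e-40). Pou3f1 (ENSMUSG00000090125.4, chr4:124550600-124554448, + strand) lay at 0.905 to 1.69 CPM (median 1.28) and at 189 to 254 CPM (median 228), a change of 7.44 ± 0.12. Both formative markers were thus near the floor of detection, or under 2 CPM, in mES cells and above 100 CPM in EpiLCs. Prdm14, a repressor of FGF signalling and DNA methylation (ENSMUSG00000042414.8, chr1:13183405-13198351, - strand), lay at 46.1 to 57.7 CPM (median 53.6) in mES cells and at 0 to 0.274 CPM (median 0.0933) in EpiLCs, a change of -9.03 ± 0.17 (edgeR adjusted p = 4.29e-36). Tfcp2l1 (ENSMUSG00000026380.11, chr1:118555636-118612915, + strand) lay at 1467 to 2235 CPM (median 1719.6) and at 10.8 to 20.9 CPM (median 17.96), a change of -6.66 ± 0.14. For none of these 4 genes did the libraries of the stages overlap.

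Across the genome, 4270 genes rose, which is 18.2% of the 23399 genes tested, and 3007 fell, which is 12.9%. Of them, 1024 rose and 633 fell over 10-fold. The levels of the 8 mES and 8 EpiLC libraries did not overlap for 8277 genes, or 35.4% of those tested. The median change of all genes was close to 0 at 0.07. The mutants helped to decide which genes had enough reads to be tested. With WT libraries alone 19187 genes were tested, of which 2956 rose and 2428 fell. With replicates 1 to 4 alone 3993 genes rose (17.5% of the 22795 tested) and 2828 fell (12.4%), and with replicates 5 to 8 alone 4020 rose (17.3% of 23249 also tested over all libraries) and 2860 fell (12.3%). Of the genes that rose in replicates 1 to 4, 79.9% also rose in replicates 5 to 8, and of those that rose in replicates 5 to 8, 79.4% also rose in replicates 1 to 4. The shares for genes that fell were 81.6% and 80.7%.

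**Figure D1:**
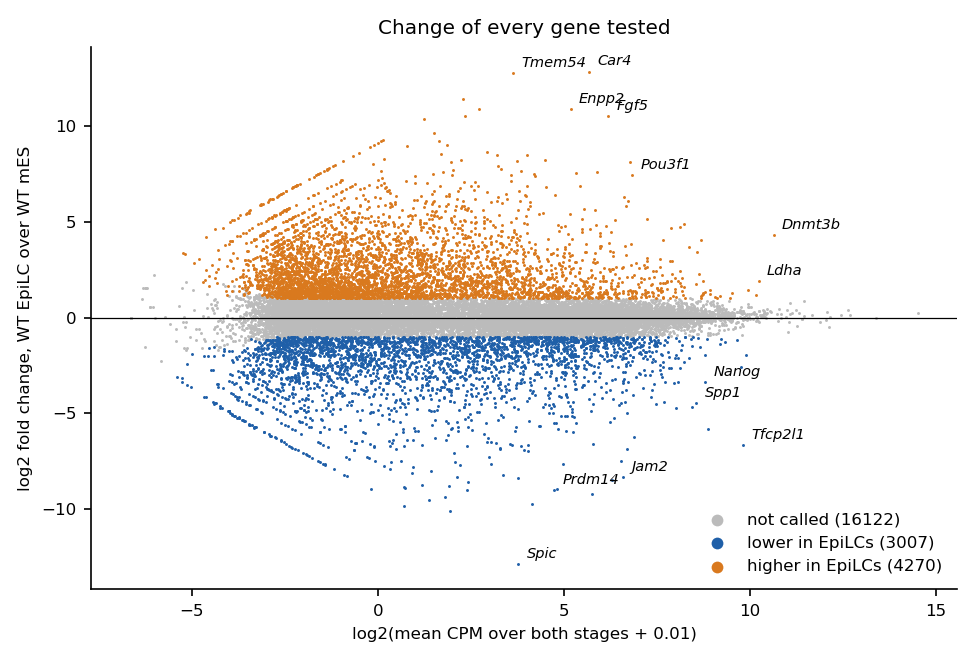
Log2 fold change of WT EpiLCs over WT mES cells (vertical axis) against log2 of the mean CPM of both stages (horizontal axis) for the 23399 genes tested, 1 point per gene. The 4270 genes that rose are orange, the 3007 that fell are blue, and Fgf5 at 10.53 and Prdm14 at -9.03 lie near the upper and lower edges.

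The genes with the largest changes were read almost only in a single stage. Car4, a membrane-bound carbonic anhydrase, had 3 reads in all 8 mES libraries and lay at 77.7 to 119 CPM (median 106) in EpiLCs. That is a ratio of 9783 (95% counting interval 3347 to 47440.0). Tmem54, a transmembrane protein, had no read in mES cells, lay at 21.0 to 28.9 CPM (median 25.2) in EpiLCs and was at least 2449.5-fold higher, counting 3 reads over the 8 mES libraries as the limit that 0 reads allow. Jakmip2 also had no read in mES cells, reached 9.73 CPM in the median EpiLC library and was at least 966-fold higher. Enpp2, for autotaxin, an enzyme that makes the signalling lipid lysophosphatidic acid, rose from a median of 0.0240 to 72.3 CPM (10.91 ± 0.17). Dcn, a matrix proteoglycan of connective tissue, had 1 read in mES cells and 7.88 to 12.9 CPM (median 10.5) in EpiLCs. Fgf15, a growth factor of the early embryo, rose from a median of 0.112 to 41.7 CPM (8.25 ± 0.19).

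In the other direction Spic, an ETS-family transcription factor, lay at 17.2 to 33.6 CPM (median 28.2) in mES cells, had no read in any EpiLC library and was at least 2621-fold lower by the same limit. Pramel6 and Khdc1c, genes of families expressed in the early embryo, had 1 read each over all EpiLC libraries, with medians of 7.54 and 4.62 CPM in mES cells. Ly6a, which encodes the surface antigen SCA-1, fell from a median of 34.6 to 0.0412 CPM (-9.77 ± 0.19). Crxos, a homeobox gene of the naive state, fell from 108 to 0.185 CPM (-9.23 ± 0.11), and Jam2, a junctional adhesion molecule, from 196 to 0.576 CPM (-8.35 ± 0.08). Osm, the cytokine oncostatin M, fell from 27.5 to 0.0822 CPM (-8.38 ± 0.18). Each of these genes had a median under 1 CPM in EpiLCs. Counts over Pramel genes are uncertain, since near-identical copies share reads.

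Levels of different genes were compared only after division by gene length (RPKM). Nanog was among the 10 most abundant genes that fell, at 361 ± 29.4 RPKM in mES cells and 34.5 ± 12.9 RPKM in EpiLCs (SD, n = 8). Dnmt3b went the other way, from 29.6 ± 7.31 to 592 ± 41.3 RPKM, and Ldha, for lactate dehydrogenase A, from 155 ± 16.8 to 572 ± 53.2 RPKM. Fgf5, with the larger fold change, stood lower per length in EpiLCs, at 58.3 ± 3.45 RPKM.

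Nearly the whole naive list fell. Of 16 naive pluripotency genes 15 fell, against 12.9% of all genes, with a median change of -4.66, and 15 fell with replicates 1 to 4 alone and 15 with replicates 5 to 8 alone. Esrrb, an orphan nuclear receptor, fell from between 866 and 991 CPM (median 899) to between 13.9 and 19.3 CPM (median 15.1) (-5.84 ± 0.09). Klf4 and Klf2, zinc finger factors downstream of LIF and of MEK inhibition, fell by 4.97 and 4.55 on the log2 scale, and Klf5 fell by 2.62. Tbx3, a T-box factor, fell from a median of 200.1 to 1.66 CPM (-6.86 ± 0.18), and Dppa3, which protects DNA from methylation in the early embryo, from 28.0 to 1.03 CPM (-4.78 ± 0.19). Zfp42, known as REX1, kept a median of 21.9 CPM in EpiLCs, against 302 in mES cells (-3.78 ± 0.12). Gbx2, a homeobox factor, was the single member that did not fall, with a change of 0.64 ± 0.21 that did not pass the thresholds.

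Core pluripotency factors behaved differently from naive ones. Pou5f1, which encodes OCT4, lay at 329 to 492 CPM (median 366) in mES cells and 388 to 617 CPM (median 475) in EpiLCs (0.35 ± 0.08), a change that did not pass. Sox2, its partner on DNA, fell from between 287 and 353 CPM (median 325) to between 43.4 and 70.2 CPM (median 59.4) (-2.48 ± 0.07, edgeR adjusted p = 2.66e-29). Of the 10 core genes 4 rose and 1 fell, with a median change of 0.56. The RNA-binding protein gene Lin28a rose from a median of 172 to 664 CPM (1.93 ± 0.10), the chromatin factor Utf1 from 45.3 to 616 CPM (3.71 ± 0.08) and Dppa2 from 27.5 to 108 CPM (1.92 ± 0.13). Sall4 (-0.56 ± 0.06) and Zfp281 (0.61 ± 0.06), zinc finger factors of both states, did not pass.

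Genes of the formative and primed epiblast rose in 17 of 19 cases, against 18.2% of all genes, with a median change of 3.91. Otx2, a homeobox factor that opens formative enhancers, rose from between 2.68 and 17.4 CPM (median 8.38) to between 92.6 and 152 CPM (median 118) (3.74 ± 0.26). Sox3, a relative of Sox2, rose from between 0.748 and 3.89 CPM (median 2.24) to between 48.4 and 69.1 CPM (median 57.2) (4.72 ± 0.17), and Grhl2, an epithelial factor of formative enhancers, from a median of 3.32 to 85.9 CPM (4.63 ± 0.09). Zic2 and Zic5, zinc finger factors, rose by 2.61 and 2.42. Tcf15, a bHLH factor linked to priming, rose from a median of 2.48 to 18.3 CPM (2.97 ± 0.16), and Pim2, a kinase gene, from 20.3 to 534 CPM (4.72 ± 0.12). Grhl3, the relative of Grhl2, moved the other way and fell from 32.7 to 2.24 CPM (-3.85 ± 0.11). Fst, for the activin antagonist follistatin, did not pass (0.30 ± 0.17) over all libraries, and rose by 1.14 with replicates 1 to 4 alone.

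**Figure D2:**
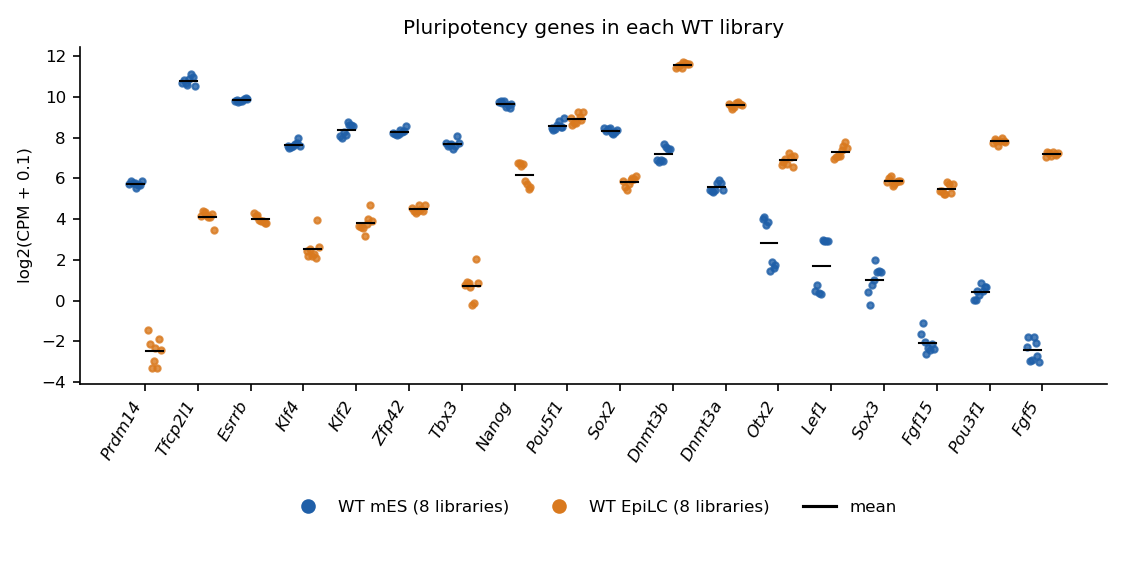
Level of 18 pluripotency genes as log2(CPM + 0.1) in each WT mES (blue) and WT EpiLC (orange) library, with black bars at the mean of the 8 log2 values. Prdm14 lies at 46.1 to 57.7 CPM in mES cells and Fgf5 at 132 to 157 CPM in EpiLCs, while Pou5f1 overlaps between the stages.

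Of the signalling pathways that the media address, LIF and STAT3 genes either fell or did not pass. Of 12 genes 5 fell, with a median of -0.55, against 12.9% of all genes. Both receptor subunits fell, Lifr from a median of 174 to 32.6 CPM (-2.45 ± 0.08) and Il6st, for gp130, from 129.7 to 23.6 CPM (-2.52 ± 0.08). The transcription factor Stat3 fell from between 154 and 190.2 CPM (median 168) to between 18.1 and 27.4 CPM (median 24.3) (-2.82 ± 0.07). Its feedback inhibitor and target Socs3 fell from 116 to 4.65 CPM (-4.51 ± 0.17), and Bcl3, an IκB-like target, from 73.9 to 1.15 CPM (-5.97 ± 0.12). The kinases Jak1 (-0.10 ± 0.04) and Jak2 (-0.13 ± 0.09) and the phosphatase Ptpn11 (0.40 ± 0.06) did not pass. The pathway's receptor, transducer and targets thus fell, while its kinases stayed within 2-fold.

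FGF and ERK signalling was read through its own feedback genes. Of 26 genes 10 rose and 2 fell, with a median of 0.77, against 18.2% and 12.9% of all genes. Dusp6 and Dusp4, phosphatases of ERK that ERK induces, rose from medians of 16.01 to 369.9 CPM (4.06 ± 0.24) and 4.03 to 123 CPM (4.42 ± 0.27). Spry4, a feedback inhibitor, rose from 7.31 to 91.8 CPM (3.39 ± 0.25) and Spry1 from 9.50 to 35.0 CPM (1.77 ± 0.10), whereas Spry2 did not pass (0.38 ± 0.07). The ETS factor Etv1 rose (1.53 ± 0.12), but its relatives Etv4 (0.45 ± 0.06) and Etv5 (0.20 ± 0.05) did not pass. Among ligands, Fgf8 rose from a median of 0.141 to 1.83 CPM (3.69 ± 0.32) and Fgf17 fell from 21.9 to 7.49 CPM (-1.57 ± 0.10), while Fgf4, the main FGF of mES cells, did not pass (-0.68 ± 0.09). Fgfr1, the main receptor, did not pass either (0.56 ± 0.04), and Fgfr3 rose at low levels, from 0.328 to 1.23 CPM (1.75 ± 0.26). The immediate early gene Fos fell (-1.15 ± 0.38), but its change was 0.32 with replicates 1 to 4 alone and was -0.45 without library 7 of the mES cells, neither of which passed.

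Of 22 genes of the Nodal, activin and BMP pathways 5 rose and 2 fell (median 0.24), near the 18.2% and 12.9% of all genes. The targets of SMAD2 and SMAD3 were among those that rose: Lefty1, a secreted antagonist of Nodal, from between 8.29 and 35.6 CPM (median 18.7) to between 39.9 and 101 CPM (median 80.2) (1.89 ± 0.23), and the repressors Skil (2.98 ± 0.08) and Smad7 (1.24 ± 0.07). Cripto, the co-receptor of Nodal that is also called Tdgf1, rose from a median of 248 to 641 CPM (1.34 ± 0.11) but did not pass with replicates 1 to 4 alone (0.95). Nodal itself lay at 73.3 to 88.1 CPM (median 82.2) and 55.3 to 67.8 CPM (median 60.6) and did not pass (-0.41 ± 0.05), nor did the activin receptor Acvr1b (-0.63 ± 0.06) or the SMAD partner Foxh1 (0.36 ± 0.06). Id1 and Id3, targets of BMP signalling, fell, Id1 from a median of 5.87 to 2.39 CPM (-1.52 ± 0.19) and Id3 from 8.34 to 4.11 CPM (-2.55 ± 0.42). Id3 was highest in library 7 of the mES cells, and its fold change is larger than its medians give. With replicates 1 to 4 alone neither Id1 (-0.89) nor Id3 (-0.74) passed.

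WNT genes moved in both directions, 6 up and 9 down of 26, with a median of -0.38, against 18.2% up and 12.9% down over all genes. The median was 0.06 with replicates 1 to 4 alone (7 up and 7 down) and -0.32 with replicates 5 to 8 alone (6 up and 10 down). Direct targets of β-catenin fell furthest. Sp5, a zinc finger factor, fell from between 15.4 and 116 CPM (median 50.3) to between 0 and 0.238 CPM (median 0.0933) (-8.95 ± 0.52), Cdx1, a homeobox factor, from between 10.7 and 46.0 CPM (median 28.8) to between 0.175 and 0.479 CPM (median 0.265) (-6.70 ± 0.33), and Axin2, a feedback inhibitor, from between 41.8 and 129 CPM (median 74.9) to between 13.6 and 20.3 CPM (median 17.1) (-2.26 ± 0.17). Notum, a secreted enzyme that inactivates WNT proteins, fell from a median of 42.3 to 1.58 CPM (-4.68 ± 0.18). Among the genes that rose were the ligand Wnt3, from 0.110 to 5.51 CPM (5.30 ± 0.24), the receptor Fzd7, from 51.7 to 291 CPM (2.42 ± 0.07), and the inhibitor Nkd2, from 1.47 to 8.01 CPM (2.51 ± 0.13), while the receptor Fzd5 fell (-2.08 ± 0.08). The transcription factor Lef1, also a formative gene, rose from between 1.14 and 7.69 CPM (median 4.54) to between 121 and 221 CPM (median 154) (5.12 ± 0.27). Ctnnb1, for β-catenin, lay at 554 and 590.0 CPM in the median libraries (0.07 ± 0.05), and Tcf7l1, which represses naive genes, did not pass (0.01 ± 0.06).

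The writers of new DNA methylation rose together. Dnmt3b rose from between 113 and 206 CPM (median 147) to between 2722 and 3306 CPM (median 3084) (4.32 ± 0.10), Dnmt3a from between 40.1 and 59.7 CPM (median 43.4) to between 672 and 854 CPM (median 787) (4.04 ± 0.07), and their cofactor Dnmt3l from a median of 21.8 to 145 CPM (2.65 ± 0.09). Of the 18 DNA methylation genes 5 rose and 2 fell, with a median of 0.14, against 18.2% and 12.9% of all genes. The maintenance enzyme Dnmt1 (-0.26 ± 0.04) and its cofactor Uhrf1 (-0.92 ± 0.06) did not pass, though Uhrf1 fell by 1.06 with replicates 1 to 4 alone. Among the enzymes that oxidise methylcytosine, Tet2 fell from a median of 174 to 16.6 CPM (-3.30 ± 0.14), Tet3 rose from 29.7 to 69.0 CPM (1.22 ± 0.09), and Tet1 lay at 525.9 and 536 CPM (-0.02 ± 0.12). Zfp57, which keeps methylation at imprinted loci, fell from 129 to 42.3 CPM (-1.62 ± 0.08).

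Genes of heterochromatin and of the nuclear lamina, the subject of the study, were then listed. Of 22 genes for H3K9 methylation and HP1 3 rose and 2 fell (median 0.07), near the 18.2% and 12.9% of all genes. Suv39h1, an enzyme that trimethylates H3K9, rose from a median of 15.2 to 39.3 CPM (1.38 ± 0.06), and Pphln1, a subunit of the silencing complex HUSH, rose from 55.0 to 227 CPM (2.01 ± 0.05). The demethylase Kdm3a fell from 222 to 99.5 CPM (-1.21 ± 0.07), while Ehmt2, which encodes G9a (-0.09 ± 0.05), its partner Ehmt1 (0.73 ± 0.04) and Setdb1 (0.29 ± 0.05) did not pass. Of 31 Polycomb genes 4 rose and 4 fell (median -0.20), also near those shares, with Phc1, a subunit of the ubiquitinating complex, at 1.23 ± 0.06 and Ezhip, an inhibitor of EZH2, at 3.69 ± 0.16, while Mtf2 (-1.21 ± 0.04) fell. Of 22 genes of the lamina and inner nuclear membrane 2 fell (median -0.28): Lmna, for lamins A and C, from between 45.1 and 71.5 CPM (median 55.8) to between 9.28 and 13.03 CPM (median 11.3) (-2.35 ± 0.08), and Syne3, for a nesprin, from a median of 2.15 to 0.366 CPM (-2.48 ± 0.24). Lmnb1 (0.00 ± 0.05), Lmnb2 (-0.14 ± 0.07) and Lbr (0.21 ± 0.11) did not pass, nor did the emerin gene Emd (0.11 ± 0.06).

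Of 25 genes of glycolysis and lactate 5 rose and 5 fell (median 0.42), near the 18.2% and 12.9% of all genes. The members that changed include pairs of related enzymes that moved in opposite directions. Ldha rose from a median of 514 to 1849.8 CPM (1.88 ± 0.06) while Ldhb fell from 477 to 77.5 CPM (-2.62 ± 0.07). The phosphofructokinase Pfkl rose (1.89 ± 0.05) while Pfkp fell (-2.04 ± 0.04), and the lactate exporter Slc16a3 rose from 17.7 to 448 CPM (4.66 ± 0.09) while the glucose transporter Slc2a3 fell from between 1345 and 1675 CPM (median 1479) to between 165 and 346 CPM (median 233) (-2.60 ± 0.12). Hexokinase 1 (Hk1) fell (-3.003 ± 0.07), and Pdk1, a kinase that keeps pyruvate out of mitochondria, rose (2.08 ± 0.13). Of 23 genes of mitochondrial respiration and biogenesis 2 rose and 3 fell (median -0.22). Cpt1a, which brings fatty acids into mitochondria, fell from 179 to 17.03 CPM (-3.41 ± 0.06), and the muscle-type subunit Cox7a1 fell from 5.93 to 1.53 CPM (-2.04 ± 0.14). Tdh, the threonine dehydrogenase on which naive mES cells depend, fell from between 560.5 and 836 CPM (median 651) to between 18.3 and 35.9 CPM (median 25.8) (-4.65 ± 0.12).

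Of 34 adhesion and matrix genes 15 rose and 9 fell (median 0.75), against 18.2% and 12.9% of all genes. Tight junction and epithelial genes rose, among them Cldn6 from a median of 13.3 to 139 CPM (3.45 ± 0.09), Cldn7 (2.37 ± 0.13), Ocln (2.71 ± 0.07) and Epcam from 29.9 to 214 CPM (2.87 ± 0.06). Laminin chains were exchanged: Lama1 fell from 156 to 16.8 CPM (-3.23 ± 0.10) and Lamc1 fell (-1.38 ± 0.05), while Lama5 (1.43 ± 0.09) and Lamb1 (3.11 ± 0.07) rose. Nid1, a basement membrane linker, fell from between 437 and 576 CPM (median 507) to between 17.6 and 21.7 CPM (median 18.9) (-4.72 ± 0.08), and Fn1, for fibronectin, from 1509 to 385 CPM (-1.98 ± 0.07). Cdh1, for E-cadherin, did not pass (0.27 ± 0.03), and Spp1, for the matrix protein osteopontin, fell from 710.4 to 29.7 CPM (-4.49 ± 0.11). The coating of the dishes also differed between the stages, and its part in these changes cannot be told apart.

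Regulators of growth and survival were called about as often as all genes (18.2% up and 12.9% down) or less, apart from the BCL2 family. Of 15 genes of the Lin28 and let-7 axis 3 rose, Lin28a, Lin28b from a median of 11.9 to 77.9 CPM (2.57 ± 0.12) and Myc from between 1.77 and 14.4 CPM (median 4.83) to between 94.9 and 144 CPM (median 119) (4.28 ± 0.25), and 3 fell (median 0.13). Mycn did not pass (0.14 ± 0.06). Of 22 cell cycle regulators 2 rose and 3 fell (median -0.25): the cyclin Ccnd2 rose from 2.13 to 34.8 CPM (3.82 ± 0.24) while Ccnd3 fell (-1.42 ± 0.06), and the inhibitor Cdkn1c, an imprinted gene, rose from 1.31 to 22.6 CPM (4.04 ± 0.15) while Cdkn1a, for p21, fell (-2.01 ± 0.08). Of 15 BCL2-family genes 5 rose (median 0.71). They were the inhibitor of cell death Bcl2 (3.30 ± 0.21) and the promoters of cell death Pmaip1, for NOXA, from between 2.08 and 3.98 CPM (median 3.002) to between 180.1 and 222 CPM (median 215) (6.11 ± 0.10), Bcl2l11, for BIM (2.57 ± 0.08), Bik (2.45 ± 0.28) and Bok (1.92 ± 0.10). Bcl2l1, for BCL-XL, did not pass (-0.33 ± 0.07).

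**Figure D3:**
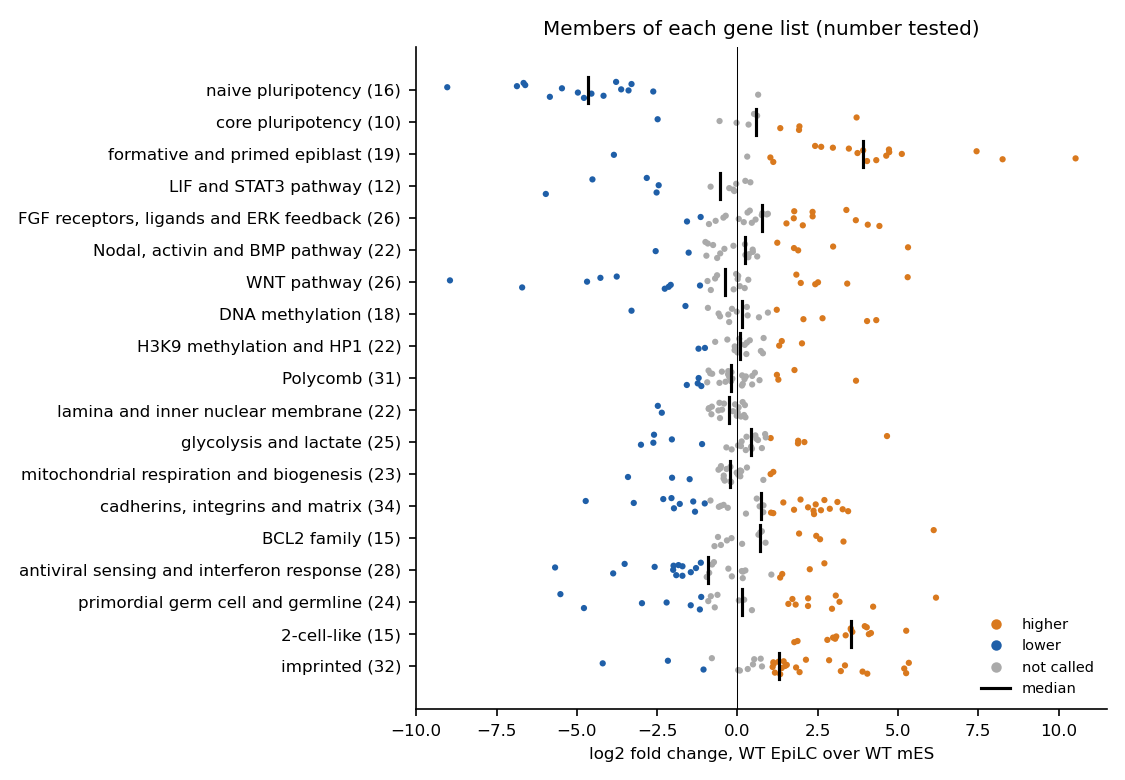
Log2 fold change of WT EpiLCs over WT mES cells for the members of 19 gene lists, 1 point per gene tested, orange where the gene rose, blue where it fell and grey where it did not pass, with a black line at the median of the list. The median of the naive list lies at -4.66, that of the formative list at 3.91 and that of the lamina list at -0.28.

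Markers of other cell types moved in both directions, and their counts stand against 18.2% up and 12.9% down over all genes. In the neural list (10 up and 3 down of 17, median 2.09) Sox1, an early neural factor, rose from a median of 8.37 to 23.6 CPM (1.57 ± 0.14), Sox11 from 23.6 to 109.7 CPM (2.17 ± 0.09) and Pax6 from 1.07 to 5.50 CPM (2.15 ± 0.18), while Sox21 fell from 24.3 to 1.31 CPM (-4.19 ± 0.16). Neurog2, a neuronal determinant, had a median of 0 CPM in mES cells and of 0.2999 CPM in EpiLCs, so it stayed under 1 CPM in the median library. The trophectoderm list (3 up and 7 down of 14, median -0.78) fell through Tfap2c, from 77.8 to 1.57 CPM (-5.51 ± 0.13), Tead4 (-4.13 ± 0.10) and Tfap2a (-3.70 ± 0.09), while Hand1 rose from 0.0372 to 1.51 CPM (4.998 ± 0.37). In the mesendoderm list (2 up and 7 down of 14, median -1.54) Eomes (0.24 ± 0.08) and Mixl1 (0.77 ± 0.20) did not pass, though Mixl1 rose by 1.22 with replicates 1 to 4 alone. The median of this list was -0.03 with replicates 1 to 4 alone (3 up and 4 down). With replicates 5 to 8 alone it was -1.74 (2 up and 7 down). T, the primitive streak factor brachyury, fell (-2.63 ± 0.47), but its change was -0.03 with replicates 1 to 4 alone.

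In the primitive endoderm list (6 up and 6 down of 17, median 0.03) the defining factors Gata4 (-0.01 ± 0.10), Gata6 (0.45 ± 0.27) and Sox17 (0.03 ± 0.31) did not pass, and Gata6 and Sox17 had medians under 1 CPM in both stages. Hnf4a (-2.65 ± 0.23), a later endoderm factor, fell, and the endocytic adaptor Dab2 (2.33 ± 0.16) and the basement membrane collagen Col4a1 (2.60 ± 0.09) rose. The fibroblast list (6 up and 1 down of 8, median 2.15) summed to 6.37 CPM in mES cells, against 25.7 in EpiLCs. Its collagen genes Col1a1 and Col3a1 had medians of 2.84 and 0.439 CPM in EpiLCs, and Dcn, described above, was its largest change. The part of other cell types in any result here was not tested.

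Germline genes moved in both directions (10 up and 7 down of 24, median 0.13, against 18.2% up and 12.9% down over all genes). Genes of the machinery that guards the germline against transposons rose: Tdrd1 from between 0.0894 and 0.434 CPM (median 0.315) to between 19.9 and 23.7 CPM (median 22.4) (6.18 ± 0.14), Mael from a median of 1.26 to 23.6 CPM (4.22 ± 0.12), Ddx4 from 5.25 to 40.9 CPM (2.94 ± 0.11) and Piwil2 (1.81 ± 0.07). Factors that specify primordial germ cells fell: Prdm1 from 25.9 to 3.23 CPM (-2.97 ± 0.13), Tfap2c and Prdm14. Among genes of transposon silencing (4 up and 3 down of 15, median 0.09) the RNA helicase Mov10 fell from 287 to 34.6 CPM (-2.98 ± 0.08) and Morc1, a repressor in germ cells, from 177 to 24.9 CPM (-2.85 ± 0.05), while Trim28, which recruits silencing to TEs, did not pass (-0.17 ± 0.06).

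Against 18.2% of all genes, all 15 genes of the 2-cell-like list that were tested rose (median 3.53), at low levels. Together they made 2.17 CPM in mES cells, against 25.7 in EpiLCs. Zscan4d, a marker of the transient 2-cell-like state, lay at 0.0362 to 0.584 CPM (median 0.332) and 2.43 to 4.68 CPM (median 3.63) (3.53 ± 0.33), and Zfp352 rose from a median of 0.0225 to 0.605 CPM (4.16 ± 0.51), though it had too few reads to be tested in replicates 5 to 8 alone. The Zscan4 and Usp17l genes share reads with near-identical copies, so the values of single members are uncertain and the members are not independent.

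Of 32 imprinted genes 21 rose and 3 fell, with a median of 1.30, against 18.2% and 12.9% of all genes. Genes of either parental allele moved: H19, expressed from the maternal allele, rose from a median of 0.4996 to 7.81 CPM (3.90 ± 0.23), and its neighbour Igf2, expressed from the paternal allele, from 0.0156 to 0.308 CPM (3.22 ± 0.45). Dlk1 rose from 0.133 to 6.31 CPM (5.25 ± 0.24), Mest from 87.3 to 316 CPM (1.83 ± 0.11) and Grb10 from 98.6 to 393 CPM (1.93 ± 0.05), while Plagl1, a zinc finger factor, fell from between 113 and 138 CPM (median 121) to between 5.57 and 8.17 CPM (median 6.58) (-4.19 ± 0.09). Igf2r (0.08 ± 0.07) and Impact (0.02 ± 0.09) did not pass. Peg10 rose (1.54 ± 0.21), but only by 0.46 with replicates 5 to 8, which did not pass.

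Of the antiviral and interferon genes more fell than rose (4 up and 13 down of 28, median -0.92, against 18.2% up and 12.9% down over all genes). The RNA sensors Rigi, from a median of 34.5 to 9.20 CPM (-1.99 ± 0.17), and Oas1a, from between 30.7 and 50.3 CPM (median 38.8) to between 0.482 and 1.05 CPM (median 0.831) (-5.68 ± 0.13), fell, as did the adaptor Sting1 (-3.51 ± 0.16) and the kinase Eif2ak2, for PKR (-1.71 ± 0.06). Ifitm1, which blocks virus entry, fell from 179 to 12.1 CPM (-3.87 ± 0.09). The receptor Tlr3 rose from 0.202 to 1.18 CPM (2.71 ± 0.34), as did Bst2, which tethers virions (1.33 ± 0.12).

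TEs took 7.60% ± 0.966 of gene and TE counts in mES cells and 8.51% ± 0.985 in EpiLCs (SD, n = 8 each), with reads of several alignments shared out among copies. This difference was not larger than the spread between libraries (two-sided exact permutation test over every split of the libraries into 8 and 8, adjusted p = 0.163, adjusted over all TEs and 5 classes). LTR elements, the remnants of endogenous retroviruses, took 1.87% ± 0.281 and 2.35% ± 0.237, a difference of 0.480 percentage points that passed (exact permutation adjusted p = 0.0224). LTR shares ran from 1.56% to 2.499% in mES cells, where library 7 was highest, and from 2.06% to 2.80% in EpiLCs, so the stages overlapped. Among LTR elements, the 10 ETn and MusD families summed to 5079 CPM in mES cells, against 10256 in EpiLCs. The 65 ERVL-MaLR families summed to 5918 CPM, against 6249, and the 111 ERV1 families to 1032 CPM, against 836. The LTR share without ETn and MusD families was not tested. The LTR difference was 0.0781 percentage points in reads of a single alignment, which did not pass (exact permutation adjusted p = 0.512). It did not pass within replicates 1 to 4 or 5 to 8 either, where 4 against 4 libraries allow no unadjusted p under 0.0286. LINEs (1.11% and 1.27%), SINEs (3.21% and 3.50%) and DNA transposons (1.22% and 1.25%) did not pass. The DNA transposon share was mostly a single family, FordPrefect. It made 10324 of the 12236 CPM of DNA transposon families tested in mES cells, and 10537 of 12721 in EpiLCs. A single copy at chr17:40153889-40154054 held 99.8% of its reads of a single alignment. Without library 7 of the mES cells the difference for all TEs was 1.24 percentage points (exact permutation adjusted p = 0.0224) and that for LINEs 0.232 (exact permutation adjusted p = 0.0233), so those calls turned on 1 library.

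Single TE families moved in both directions, and fewer of them than genes. Of 1142 families 27 rose (2.36%) and 25 fell (2.19%), and the libraries of the stages did not overlap for 43 families (3.77%). The median change over all families was 0.15, against 0.07 over genes. Of the 27 families that rose 20 overlapped between the stages, all but 2 of them with a mean under 1 CPM in EpiLCs, and of the 25 that fell 5 did. With replicates 1 to 4 alone 36 families rose (3.16% of 1139) and 24 fell (2.11%), and with replicates 5 to 8 alone 14 rose (1.23%) and 31 fell (2.71%). In both sets apart 5 families rose and 20 fell. The 20 families that fell in both sets are 83.3% and 64.5% of the 2 sets' counts, and the 5 that rose are 13.9% and 35.7%.

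MERVL-int, the coding portion of an endogenous retrovirus that 2-cell embryos transcribe, rose from between 45.4 and 101 CPM (median 60.9) to between 137 and 229.7 CPM (median 192) (1.53 ± 0.13, edgeR adjusted p = 4.05e-13). In reads of a single alignment it rose by 1.36. These reads were spread over 463 copies with at least 20 reads, and the largest copy held 2.60% of them. With 0.1 CPM added to each copy's mean in each stage, 120 copies were over 2-fold higher and 3 over 2-fold lower. This addition shrinks the fold of copies at low levels. MT2_Mm, the LTR of MERVL, was at 0.82 ± 0.10 with multimapped counts and did not pass, though it rose by 1.11 with replicates 1 to 4 alone. In reads of a single alignment it lay at 33.2 ± 4.64 CPM in mES cells and at 36.5 ± 5.10 CPM in EpiLCs (SD, n = 8). Its copy with the most such reads, at chr9:108530694-108531127, went from 7.17 ± 1.75 to 0.0298 ± 0.0402 CPM (SD, n = 8). The rest of MT2_Mm summed to 26.0 CPM in mES cells, against 36.5 in EpiLCs. MMETn-int, the internal part of the ETn and MusD retrotransposons, was the family with the most counts among those that rose, from between 2229 and 2905 CPM (median 2735) to between 5248 and 5974 CPM (median 5727) (1.08 ± 0.05), and rose by 1.07 in replicates 1 to 4 and 0.98 in replicates 5 to 8, where it did not pass 2-fold. It did not pass with no filter on low counts (0.996) or in unique reads (0.96). ETnERV-int, a relative, was at 0.96 ± 0.04 and did not pass, and 37.6% of its unique reads came from a copy within the gene Wiz at chr17:32588713-32594712. RLTRETN_Mm, the LTR of ETn, stood just past 2-fold in multimapped counts (1.003 ± 0.13), at 0.15 in unique reads and at 1.04 and 0.87 with replicates 1 to 4 and 5 to 8 alone, the latter not passing, and lost its call when any of 9 libraries was left out (0.942 to 0.989, namely EpiLC 1 and 5 to 8, mES 1 to 4). In unique reads its largest copy, at chr12:4602448-4602750, went from 9.04 ± 3.51 to 0.794 ± 0.244 CPM (SD, n = 8). The rest of RLTRETN_Mm summed to 24.8 CPM in mES cells, against 38.3 in EpiLCs. RLTR13G, an LTR of ERVK elements, rose by 1.07 ± 0.21, at 74.6 to 166 CPM (median 118) in mES cells and 149 to 364 CPM (median 249) in EpiLCs, and did not pass without EpiLC library 1, 2 or 4 or mES library 5 or 6 (0.964 to 0.993), in unique reads (0.94) or with replicates 5 to 8 alone (0.85).

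Other families that rose with no overlap between the stages were at low levels: Mam_R4 from a median of 0.587 to 2.43 CPM (1.93 ± 0.17), MamTip1 from 0.265 to 1.21 CPM (2.09 ± 0.24), RLTR50A from 0.0933 to 0.370 CPM (2.08 ± 0.34) and the satellite SYNREP_MM from 0.323 to 1.06 CPM (1.68 ± 0.30). Each had reads in few copies, with at least 20 unique reads in 8 copies of Mam_R4, 8 of MamTip1, 2 of RLTR50A and 5 of SYNREP_MM. For Mam_R4, 67.7% of unique reads came from a copy in Armcx4 at chrX:133597256-133597375, which went from 1.62 ± 0.541 to 3.65 ± 1.01 CPM (SD, n = 8). This is more than the multimapped table gives the whole family, so the tables counted such reads differently, and the cause was not tested. The gene itself changed by 1.11.

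The families that fell were ERVK and ERV1 elements in the main. RLTR13B2 fell from between 9.17 and 15.4 CPM (median 11.9) to between 1.55 and 2.94 CPM (median 1.96) (-2.48 ± 0.13), and its copy with the most reads, in Ak4 at chr4:101303291-101304116, went from 3.23 ± 0.702 to 0.0996 ± 0.0943 CPM (SD, n = 8). Ak4 itself changed by -2.31, and the hosts of the next copies by reads, Spats1 and Vps54, by -2.02 and -1.29. Reads of these copies cannot be told apart from those of their host genes. MER34-int fell from between 1.095 and 3.17 CPM (median 1.56) to between 0.118 and 0.380 CPM (median 0.290) (-2.78 ± 0.22), with 62.5% of its unique reads from a copy at chr17:37283306-37283546 outside annotated genes. RMER16B2 fell (-1.597 ± 0.18), with its top copy at chr11:88859311-88859734 going from 6.25 ± 4.80 to 0.0126 ± 0.0190 CPM (SD, n = 8). IAPEy-int, of the IAP group of retrotransposons, fell from between 16.7 and 28.8 CPM (median 21.7) to between 4.98 and 10.3 CPM (median 8.62) (-1.41 ± 0.11). With its LTR IAPEY_LTR (-1.09 ± 0.15) it made up the 2 of 25 IAP families that fell (median of the 25 -0.33), against 2.19% of all families. IAPEz-int, the most common IAP element, was at -0.49 ± 0.06 and did not pass. LTRIS2, an LTR of ERV1 elements, fell from between 111 and 210.1 CPM (median 143) to between 60.7 and 78.6 CPM (median 67.4) (-1.12 ± 0.10). With 0.1 CPM added as above, 50 of 180 copies of LTRIS2 were over 2-fold lower and 1 over 2-fold higher. The change of LTRIS2 was -0.90 with replicates 1 to 4 alone, which did not pass.

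Some families depended on how reads were assigned. RLTR45-int fell by 1.65 on the log2 scale in multimapped counts, from between 39.5 and 63.8 CPM (median 48.7) to between 13.5 and 21.7 CPM (median 15.01), and was at -0.61 in unique reads, where it did not pass and of which 32.7% lay in a copy within the noncoding RNA gene Norad at chr2:156234716-156234880. That copy went from 9.13 ± 1.63 to 9.82 ± 3.01 CPM (SD, n = 8), whereas the rest of the family summed to 25.3 CPM in mES cells, against 13.6 in EpiLCs. RLTR41C was at -1.12 and -0.09 by the same measures, with 81.0% of unique reads from 1 copy. UCON41 fell (-1.88 ± 0.16), and 87.8% of its unique reads came from a copy inside the noncoding RNA gene Lncenc1 at chr13:97626592-97626892, a gene that changed by -2.11. Such reads cannot be told apart from those of the host gene.

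No family of the youngest LINE-1 group passed over all libraries: the 7 L1MdA families had a median of 0.36, and 5 of them were higher at an unadjusted edgeR p under 0.05 but within 2-fold. With replicates 1 to 4 alone L1MdA_II rose by 1.03, and with replicates 5 to 8 alone it was at 0.48 and did not pass. The 15 other L1Md families had a median of 0.20, and the 20 older Lx families 0.18, with 6 and 4 higher at an unadjusted p under 0.05. The 16 SINE families of B1 and B2 had a median of 0.16, with 3 higher by that measure, and the 65 ERVL-MaLR families 0.12, with 6 higher and 3 lower. DESeq2 called no member of these 5 groups. By class, 6 of 274 ERVK families rose and 14 fell, 3 and 8 of 111 ERV1 families did, and 9 and 2 of 273 DNA transposons. Over all 1142 families 2.36% rose and 2.19% fell.

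**Figure D4:**
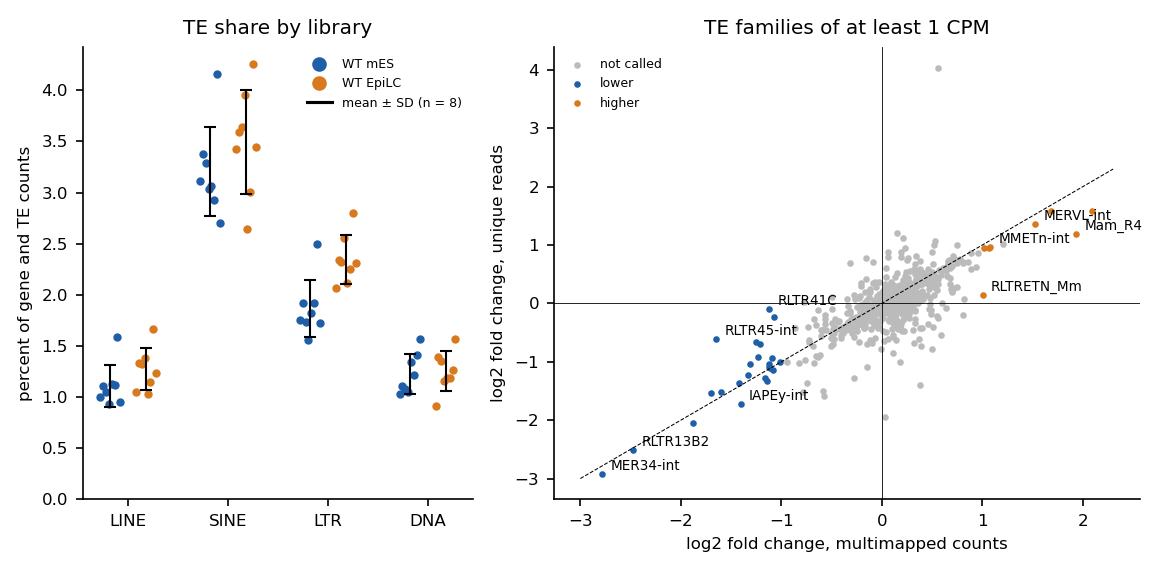
Left, the percent of gene and TE counts taken by LINE, SINE, LTR and DNA elements in each WT mES (blue) and WT EpiLC (orange) library, with mean ± SD (n = 8). Right, the log2 fold change of TE families of at least 1 CPM in multimapped counts (horizontal) against unique reads (vertical), where MERVL-int lies near the dashed line of equality at 1.53 and 1.36 and RLTR45-int lies off it at -1.65 and -0.61.

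The passage was then followed in replicates 1 to 4 and in replicates 5 to 8 apart, with a test of the difference between the 2 changes. For 315 genes (1.35%) the change differed over 2-fold between the sets, more negative in replicates 5 to 8 for 200 and more positive for 115, and for 81 of them the 2 changes had opposite signs. The sets stood apart in mES cells more than in EpiLCs. Within mES cells 504 genes (2.15%) were higher and 436 (1.86%) lower in replicates 5 to 8 than in replicates 1 to 4, and within EpiLCs 71 (0.303%) were higher and 166 (0.709%) lower. Of the 315 genes, 223 differed between the sets within mES cells and 22 within EpiLCs, 3 in both. Without library 7 of both stages the change differed for 307 genes. The sets also differed in depth, as given above, and what else set them apart cannot be told from the labels. A set held 4 wells per stage. The p-values of set differences thus measure the spread between wells within a set, not between repeats of a set.

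Targets of WNT signalling were higher in mES replicates 5 to 8. Of 26 WNT genes 8 were higher there, against 2.15% of all genes. Axin2 lay at 47.4, 41.8, 44.9 and 45.4 CPM in mES replicates 1 to 4 and at 129, 119.9, 109 and 102 CPM in replicates 5 to 8, with no overlap (1.36 ± 0.09, edgeR adjusted p = 3.81e-15). In EpiLCs the same sets lay at 13.6 to 20.3 and 13.8 to 18.1 CPM, and did not differ by the thresholds (-0.17 ± 0.09). Its change over the passage was -1.34 in replicates 1 to 4 and -2.87 in replicates 5 to 8, a difference of -1.52 ± 0.12 (edgeR adjusted p = 2.44e-11). Sp5 showed the same order, at 15.7, 15.4, 19.2 and 16.8 CPM and at 116, 86.7, 81.4 and 98.8 CPM in the 2 sets of mES libraries (2.51 ± 0.14), but with EpiLC levels near 0 the difference between its changes did not pass (-1.47 ± 0.87, edgeR adjusted p = 0.426). Lef1 lay at 1.27, 1.62, 1.19 and 1.14 CPM and at 7.69, 7.47, 7.56 and 7.55 CPM, and its rise was 6.64 in replicates 1 to 4 and 4.65 in replicates 5 to 8.

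For some genes the direction of the passage turned on the set. Cdx2, a homeobox factor, was at 0.0362, 0.0623, 0 and 0.0654 CPM in mES replicates 1 to 4 and at 2.83, 1.59, 1.32 and 2.304 CPM in replicates 5 to 8, and in EpiLCs at 0.156 to 0.323 and 0.0495 to 0.372 CPM. It rose in replicates 1 to 4 (2.51) and fell in replicates 5 to 8 (-3.11), a difference of -5.63 ± 0.74 (edgeR adjusted p = 1.42e-06). T was at 0.217 to 0.327 and 3.46 to 4.41 CPM in the 2 sets of mES libraries, with changes of -0.03 and -3.21 (difference -3.18 ± 0.50). Bmp4, a BMP ligand, was at 1.99, 1.75, 2.44 and 1.80 CPM and at 11.0, 9.48, 12.03 and 12.7 CPM in mES cells, and its change was 0.99 in the first set, which did not pass, and -1.94 in the other (difference -2.93 ± 0.20, edgeR adjusted p = 4.78e-13). Gbx2, the naive gene that did not fall, rose by 1.595 in replicates 1 to 4 and was at 0.23 in replicates 5 to 8.

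The growth-factor response genes Egr1, Id3 and Myc also differed between the mES sets, with library 7 highest. Of the 26 genes of the FGF and ERK list 3 were higher and 1 lower in replicates 5 to 8. The shares over all genes were 2.15% and 1.86%. Egr1 lay at 40.8, 39.0, 31.8 and 36.0 CPM in replicates 1 to 4 and at 88.0, 60.1, 913 and 239 CPM in replicates 5 to 8 (3.14 ± 0.52). Id3 lay at 6.57 to 7.04 CPM and at 15.1, 9.63, 96.5 and 34.6 CPM (2.499 ± 0.43), and its change was -0.74 in the first set, which did not pass, and -3.36 in the other. Myc lay at 2.71, 1.96, 2.32 and 1.77 CPM and at 10.1, 6.95, 14.4 and 7.86 CPM (2.16 ± 0.19), and rose by 5.76 and 3.63. In each case all 4 libraries of the deeper set were above all 4 of the other.

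Otx2, Lefty1 and Lefty2, which lie downstream of Nodal, stood in the opposite order. Of the 22 genes of the Nodal, activin and BMP list 3 were higher and 3 lower in mES replicates 5 to 8. The shares over all genes were 2.15% and 1.86%. Otx2 lay at 15.8, 17.4, 13.1 and 14.2 CPM in mES replicates 1 to 4 and at 2.68, 3.64, 2.97 and 3.25 CPM in replicates 5 to 8 (-2.26 ± 0.14, edgeR adjusted p = 4.06e-15), and in EpiLCs at 101 to 125 and 92.6 to 152 CPM, which overlapped. Its rise was 2.87 in replicates 1 to 4 and 5.34 in replicates 5 to 8 (difference 2.47 ± 0.19). Lefty1 lay at 34.2, 26.2, 28.9 and 35.6 CPM and at 10.8, 9.14, 11.3 and 8.29 CPM in mES cells (-1.66 ± 0.19), and Lefty2 at 35.1, 26.6, 30.8 and 34.5 CPM and at 14.03, 15.6, 13.1 and 10.8 CPM (-1.24 ± 0.10). Lefty2 thus rose by 1.22 in replicates 5 to 8 and was at -0.02 in replicates 1 to 4, and it did not pass over all libraries (0.47 ± 0.15). Nodal itself did not differ by the thresholds between the mES sets (-0.14 ± 0.07).

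In EpiLCs 1.01% of the 23399 genes tested differed between the sets in either direction. Among the listed genes 5 did, no more than 1 of any list, namely Acta2, Lhx1, Nanog, Peg10 and Pou3f3. Nanog, the pluripotency gene among them, was at 107, 107, 97.8 and 105 CPM in EpiLC replicates 1 to 4 and at 58.6, 52.5, 45.0 and 47.0 CPM in replicates 5 to 8 (-1.04 ± 0.08, edgeR adjusted p = 6.03e-12), while its mES levels differed by -0.20 ± 0.07. It fell in both sets, by 3.05 and 3.89, and the difference between these changes did not pass 2-fold (-0.84 ± 0.11). Fgf5 and Prdm14 changed by similar amounts in both sets, at 10.60 and 10.48 for Fgf5 (difference -0.13 ± 0.50) and at -8.93 and -9.10 for Prdm14 (difference -0.16 ± 0.59). Peg10, an imprinted gene derived from a retrotransposon, differed in both stages, being higher in mES replicates 5 to 8 (1.13 ± 0.17) and lower in EpiLC replicates 5 to 8 (-1.06 ± 0.17).

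**Figure D5:**
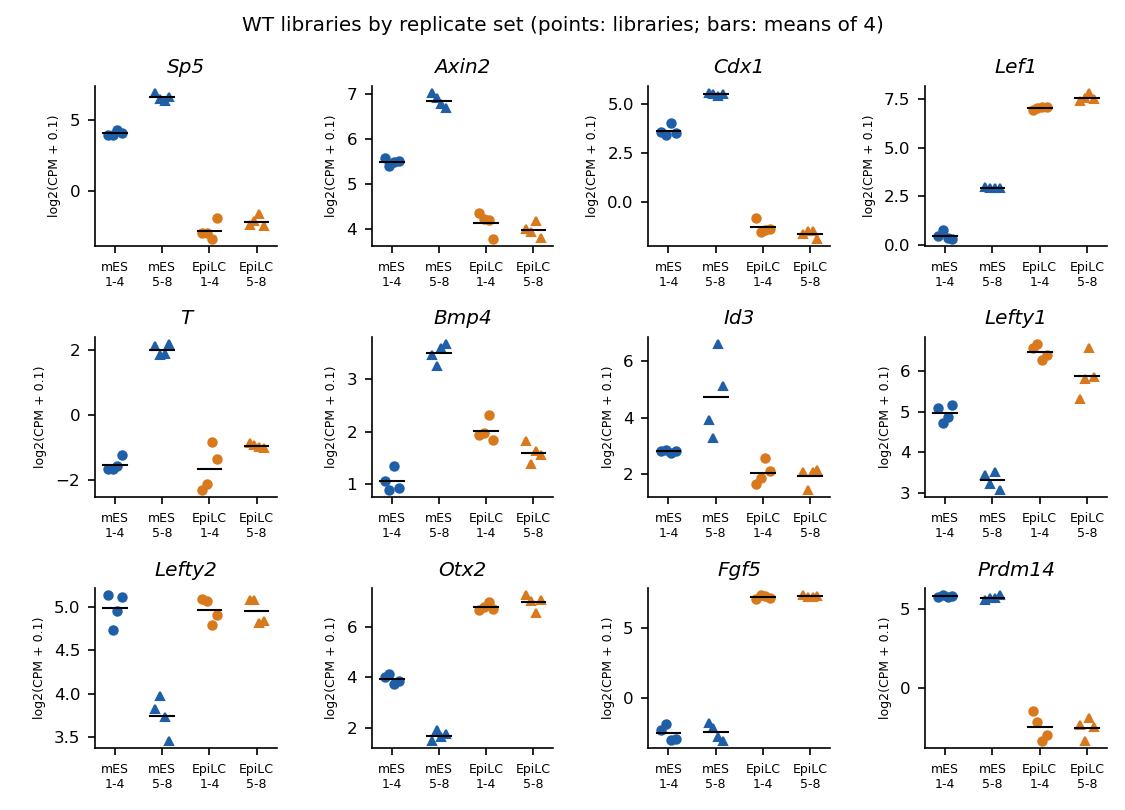
Level as log2(CPM + 0.1) of 12 genes in WT mES (blue) and WT EpiLC (orange) libraries, with replicates 1 to 4 as circles, replicates 5 to 8 as triangles and black bars at the mean of 4 log2 values. Sp5 lies at 15.4 to 19.2 CPM in mES replicates 1 to 4 and at 81.4 to 116 CPM in replicates 5 to 8, Otx2 at 13.1 to 17.4 and 2.68 to 3.64 CPM, while the sets of Fgf5 and Prdm14 overlap in both stages, and the vertical scale differs between genes.

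The 2-cell-like genes and MERVL-int shared an order between the sets. Of the 15 genes of the 2-cell-like list 7 were higher in mES replicates 5 to 8, against 2.15% of all genes. Near-identical copies among them share reads and are not independent. Zscan4d lay at 0.0362, 0.125, 0.0595 and 0.262 CPM and at 0.411, 0.402, 0.584 and 0.497 CPM in mES cells (1.94 ± 0.49), and at 3.67 to 4.68 and 2.43 to 3.59 CPM in EpiLCs, so that its rise was 5.07 and 2.69. MERVL-int lay at 50.5, 53.3, 51.9 and 45.4 CPM and at 70.2, 71.4, 101 and 68.5 CPM in mES cells and at 194, 214, 200.3 and 229.7 CPM and at 137, 137, 177 and 189 CPM in EpiLCs. Its change was 2.01 in replicates 1 to 4 and 0.98 in replicates 5 to 8, where it did not pass 2-fold, and it was the only TE family of 1142 (0.0876%) whose change differed between the sets by the thresholds (difference -1.02 ± 0.20, edgeR adjusted p = 0.00142). DESeq2 called 2 families, and with single libraries left out the count ran from 0 to 3. Within mES cells 14 TE families (1.23%) were higher in replicates 5 to 8, and within EpiLCs RLTR13G alone (0.0876%) was lower, at 348, 332, 327 and 364 CPM in replicates 1 to 4 and at 170.3, 164, 155 and 149 CPM in replicates 5 to 8.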

How the data were processed

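Counts in the deposited tables are raw. The authors trimmed reads of stranded, ribosome-depleted libraries (cutadapt 2.5), aligned them to GRCm39 by STAR 2.7.10a, and counted reads of a single alignment per gene and per TE copy (featureCounts 1.6.4). A second deposited table holds whole-number counts per gene and TE family from TEcount, which shares a multimapped read among its alignments. The sources used here do not say whether counting used strand, so overlapping and antisense genes are uncertain. Counts were fitted with edgeR 4.0.16 in R 4.3.3 (TMM scaling, filterByExpr, quasi-likelihood test) over all 40 libraries with 1 mean for each of 8 groups. TE families and genes of the second table were fitted together. CPM and RPKM were computed from the counts, RPKM with the length in the gene table. The difference between replicate sets was a contrast in a model with WT split by set. On simulated counts the contrast of stages recovered 87.3% of genes changed by 1.5 and 96.7% of those changed by 2 on the log2 scale. The contrast of sets recovered 48.1% and 64.8%, each over 23399 genes. Few genes were changed there, and all others had the same mean in every group, unlike in the data. TE shares were compared by exact permutation of libraries. Counting intervals cover counting error only. Named items were the members of the lists, the 4 markers, the 15 genes with the largest fold in each direction among those that passed, did not overlap, reached a mean of 5 CPM and had no clone or predicted-gene name, the 10 with the highest RPKM in each direction, the 10 TE families with the largest fold in each direction at 1 CPM or more, the 10 genes with the largest difference between sets in each direction at 5 CPM or more, all TE families with such a difference, and the 5 most abundant TE families. Lncenc1, Wiz, Norad, Ak4, Spats1, Vps54 and Armcx4 were named as hosts of TE copies after their values were seen. The members, lists and tests were chosen with earlier results of these data known. Alternatives were DESeq2 1.42.0, RLE scaling, no filter, WT libraries alone, the replicate number as a block, unique TE reads, each set alone and each library left out. Leaving out library 7 of both stages, and comparing sets within a stage, were chosen after seeing the data. Gene positions are from GENCODE M39 on GRCm39, where 56017 of 56748 identifiers were found. Promoters are from the same genome. Some listed genes and some promoters are not reported here. Tables and plots used Python 3.11.15 with pandas 2.3.3, SciPy 1.17.1 and matplotlib 3.10.9.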

Additional observations from a re-analysis of the deposited data

Results flagged for a closer look

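In 26 of 158 groups of 8 libraries checked, the highest or lowest library lay apart from the others by Dixon's test, which chance alone does in about 1 of 20 groups. Library 7 of the mES cells accounted for much of this. Its TE share was 9.87%, with 1.59% for LINEs, 4.16% for SINEs and 2.499% for LTR elements, each the highest of its stage. The families B3 (4765 CPM), MERVL-int (101 CPM), MMERVK10D3_I (61.6 CPM), RMER16B2 (28.4 CPM) and SYNREP_MM (0.735 CPM) were also highest there. Among abundant genes, Dstn (304 CPM) and Spp1 (843 CPM) were highest in mES library 8. In EpiLC library 8 Tfcp2l1 (10.8 CPM) and Fndc3c1 (22.8 CPM) were lowest, in library 6 Crxos was lowest (0.0674 CPM), and in library 7 Jakmip2 (11.6 CPM) and the TE family MamRep4096 (2.89 CPM) were highest. The other cases were single reads or a few reads of genes near 0 CPM in that stage. In mES libraries they were Aadat (0.0242 CPM in library 5), Dcn (0.0254 CPM in library 7), Gpm6a (0.0671 CPM in library 6), Klhl14 (0.0327 CPM in library 4), Prom2 (0.109 CPM in library 1) and Rxrg (0.0507 CPM in library 7). In EpiLC libraries they were Bhmt (0.0970 CPM in library 2), Khdc1c (0.0219 CPM in library 8), Pramel6 (0.0219 CPM in library 8) and Srarp (0.0684 CPM in library 1).

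The change from mES cells to EpiLCs differed between replicates 5 to 8 and replicates 1 to 4 by the test of the difference itself for the items that follow. The genes are the 10 with the largest difference in each direction among those that reached 5 CPM in a set, and rarer genes such as Cdx2, given above, differed too. On the log2 scale, the change in replicates 5 to 8 minus that in replicates 1 to 4 was -4.87 for Miat, -3.31 for St6gal2, -3.06 for Nt5e, -2.93 for Bmp4, -2.75 for Htr5a, -2.67 for Rgs2, -2.63 for Ghr, -2.62 for Id3, -2.60 for Gbp2 and -2.43 for Clca4a. It was 3.25 for Pga5, 2.47 for Otx2, 1.92 for Sash3, 1.83 for Slc1a1, 1.80 for Spock2, 1.67 for Cd6, 1.58 for Nsmf, 1.57 for Mypn, 1.49 for Padi3 and 1.47 for Megf6. Miat, a noncoding RNA, had no read in mES replicates 1 to 4, so the size of its difference depends on the prior count of the fit. Miat lay at 0.0242, 0.224, 0.101 and 0.226 CPM in mES replicates 5 to 8 and at 4.34 to 7.81 and 7.85 to 11.3 CPM in the 2 sets of EpiLC libraries. Pga5, for a pepsinogen, lay at 10.3, 11.6, 9.40 and 10.8 CPM and at 6.65, 5.63, 5.58 and 6.78 CPM in mES cells. MERVL-int was the TE family, at -1.02. The part of depth in these differences was not tested.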

How the results depend on the processing

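Counts of genes that rose or fell kept within 1.5 times under each alternative: from 2956 (WT libraries alone) to 6256 (no filter) higher and from 2421 to 4131 lower. TE families that rose numbered 14 with WT libraries alone, 14 with the replicate number as a block and 14 with replicates 5 to 8. Families whose change differed between the sets numbered 2 with DESeq2. With single libraries left out, the counts ran from 4154 to 4431 genes higher, 2978 to 3096 lower, 20 to 40 TE families higher, 23 to 30 lower, 265 to 368 genes and 0 to 3 TE families that differed between the sets. TE families that rose numbered 40 without mES library 7. The difference in share (percentage points) ran from 0.683 to 1.24 for all TEs, 0.106 to 0.232 for LINEs, 0.180 to 0.425 for SINEs, 0.415 to 0.571 for LTR elements and -0.0173 to 0.0776 for DNA transposons, the last reversed without mES library 1 and without EpiLC library 8. It was -0.0825 for DNA transposons in replicates 5 to 8. For LTR elements it lost its call in unique reads (0.0781), replicates 1 to 4 (0.581) and replicates 5 to 8 (0.380). Without library 7 of both stages, chosen after seeing the data, all TEs (1.01) and LINEs (0.175) passed. Of the named genes and families that rose or fell, Cdx2 (2.51), Dkk1 (0.30), Fos (0.32) and RLTR3_Mm (-0.0157) changed sign in replicates 1 to 4, and RLTR3_Mm (-0.0324) did in unique reads. The cause was not tested. Call changes numbered 3 lost and 1 gained with DESeq2, 4 and 1 with RLE scaling, 32 and 22 with replicates 1 to 4, and 29 and 13 with replicates 5 to 8. Among the calls that RLE scaling lost were Foxd3 and RLTRETN_Mm, which lay near 2-fold. Same-numbered libraries of the stages were not paired by the labels, and their deviations correlated at 0.00303 to 0.419, highest with their own number for 3 of 8. Taken from the mean of each set of 4, the correlations ran from -0.140 to 0.269, and more libraries matched their own number best. With the replicate block 2991 genes rose and 2421 fell, and 5 named calls were lost and 3 gained. TE families below about 1 CPM rest on few reads.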

Other observations

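By annotated class, 25.1% of the 3253 long noncoding RNA genes tested rose and 17.3% fell, against 18.2% and 12.9% of all genes and 19.002% and 12.8% of the 15477 protein-coding genes. Processed pseudogenes, copies of mRNAs pasted into the genome, stood at 4.83% of 2238 higher and 8.40% lower, a difference that was not tested. Reads of pseudogenes can be shared with their parent genes. Of 167 small nucleolar RNA genes 7.19% rose and 0.599% fell.

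By chromosome, the median change of genes with a mean of at least 1 CPM over both stages ran from -0.10 for chromosome 16 to 0.12 for chromosome 3 among autosomes and the X chromosome. It was 0.01 for chromosome 6 and 0.06 for chromosome 8, the chromosomes that part of the line was karyotyped to have gained, and 0.00 and 0.01 between the replicate sets within mES cells. On the X chromosome 20.04% of 524 genes rose and 10.3% fell, and over the autosomes the shares of the same set of genes ran from 9.77% to 16.3% and from 8.43% to 13.8%, which was not tested. Of 6 Y-linked genes 1 fell, Zfy1, from a median of 1.07 to 0.458 CPM (-1.29 ± 0.18). Ddx3y (-0.12 ± 0.06), Uty (0.16 ± 0.06) and Eif2s3y (-0.33 ± 0.08) did not pass and were read in all 16 libraries, at 52.5 to 79.1 CPM for Ddx3y. Of 13 protein-coding genes of the mitochondrial genome none passed in edgeR or DESeq2, and 2 were lower at an unadjusted edgeR p under 0.05 (median -0.16).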
